A study of Bos taurus with 16 samples.

Results

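Proteasome genes were compared between blastocysts of cows fed different oilseeds. The members were all genes whose symbol begins with PSMA, PSMB, PSMC, PSMD, PSME, PSMF or PSMG followed by a digit, which took in 79 of 43794 array probes and 47 of 15216 named genes. By textbook role, 46 of the 47 fell into 8 subunit groups. The core held 8 alpha ring genes, 7 beta ring genes and 4 immune or thymus beta genes. The regulatory particle held 6 ATPases, 3 further base subunits and 7 lid subunits. A further 4 genes encode activators or regulators and 7 encode assembly chaperones. The remaining symbol, PSMC3IP, names a meiotic recombination factor that is no subunit. PSMD13 and PSME3 were not among the named probes and are not analysed here.

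The proteasome is the large protease that degrades proteins tagged with ubiquitin. Its barrel-shaped core is built of alpha rings, which gate the entrance, and beta rings, which hold the catalytic sites. A regulatory particle caps the barrel: its lid binds and strips ubiquitin chains, and the ATPases of its base unfold the substrate and thread it into the core. In early embryos this pathway is known for removing maternal proteins as the embryo's own genome takes over, and for timing the cell cycle.

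All embryos came from non-lactating Holstein cows that were superovulated, inseminated with semen of 1 sire and flushed at day 7.5. The control diet was canola (CAN, high in oleic acid, 8 cows). The other diets were flax (FLX, high in α-linolenic acid, 8 cows) and sunflower (SUN, high in linoleic acid, 7 cows), all fed as rolled oilseeds for at least 35 days. Stage-matched embryos were pooled within a cow, and every array set an FLX or a SUN pool against a CAN pool in the dyes Cy3 and Cy5. Each diet had 4 replicate pools, and each pool was hybridised on a pair of arrays with the dyes exchanged, which made 16 arrays. Per the labels, the FLX and SUN pools of 1 number were set against a CAN pool of the same number. No source used here states whether this was 1 RNA extract, so the comparisons with CAN may share control samples, and their values are given side by side. Slides 1 and 2 carried FLX and slides 3 and 4 carried SUN, so slide and diet cannot be told apart.

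All values are log2 ratios of diet over CAN, averaged over a pool's 2 arrays and over a gene's probes. Ratios were read as Cy5 over Cy3, a likely direction that no label states, and as base 2, and with Cy3 over Cy5 every sign turns. A ratio carries no level, so the tissue could not be checked against its markers, genes could not be ranked by abundance, and signal over background is unknown. In whole embryos, fewer cells of a type and less RNA per cell cannot be told apart. Array medians lay between −0.0139 and 0.00947. The mean of a gene often turned sign with the dye: 28 of 47 members under FLX (59.6%, against 59.9% of all features) and 17 under SUN (36.2%, against 55.1%) had opposite signs in the dye orientations. Over the 79 member probes, a pool's arrays correlated after turning at 0.10 (FLX pool 4) to 0.76 (FLX pool 1), and at 0.17 to 0.62 over all probes. The few arrays limit precision: over all features a mean ratio had a median standard error of 0.070.

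As a whole, the proteasome genes showed no common shift under either diet. Under FLX, 22 of 47 members had a positive and 25 a negative mean ratio, with a median of −0.0046. The member median of each FLX pool was 0.026, −0.010, 0.034 and −0.069. Under SUN, 26 were positive and 21 negative, with a median of 0.028 and pool medians of −0.040, 0.046, 0.11 and −0.083. The pools of each diet thus lay on both sides of 0, and the SD between pool medians (0.047 for FLX and 0.086 for SUN, n = 4 each) exceeded each median.

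No member passed a false discovery rate of 0.05 in the limma fit over all 37220 features. This threshold called 0% of all features in each comparison, and the lowest adjusted p of a member was 1.00 for FLX and 0.774 for SUN. At an unadjusted p under 0.05, FLX vs CAN held 4 members (8.51%), against 2.92% of all features and 3.35% of named genes. Of these, 2 were higher and 2 lower, where 1.63% of all features were higher and 1.29% lower. SUN vs CAN held 9 members (19.1%), against 6.44% of all features and 6.45% of named genes. Of these, 4 were higher and 5 lower, where 3.59% of all features were higher and 2.85% lower. In all 4 pools, 7 members kept 1 sign under FLX (14.9%, against 10.2% of all features and 10.5% of named genes). Under SUN, 12 did so (25.5%, against 13.8% and 13.4%). The median size of a member's mean ratio, sign set aside, was 0.068 for FLX and 0.11 for SUN, against 0.050 and 0.063 over all named genes. Probe brightness, which sets the noise of a ratio, was not analysed here.

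**Figure D1:**
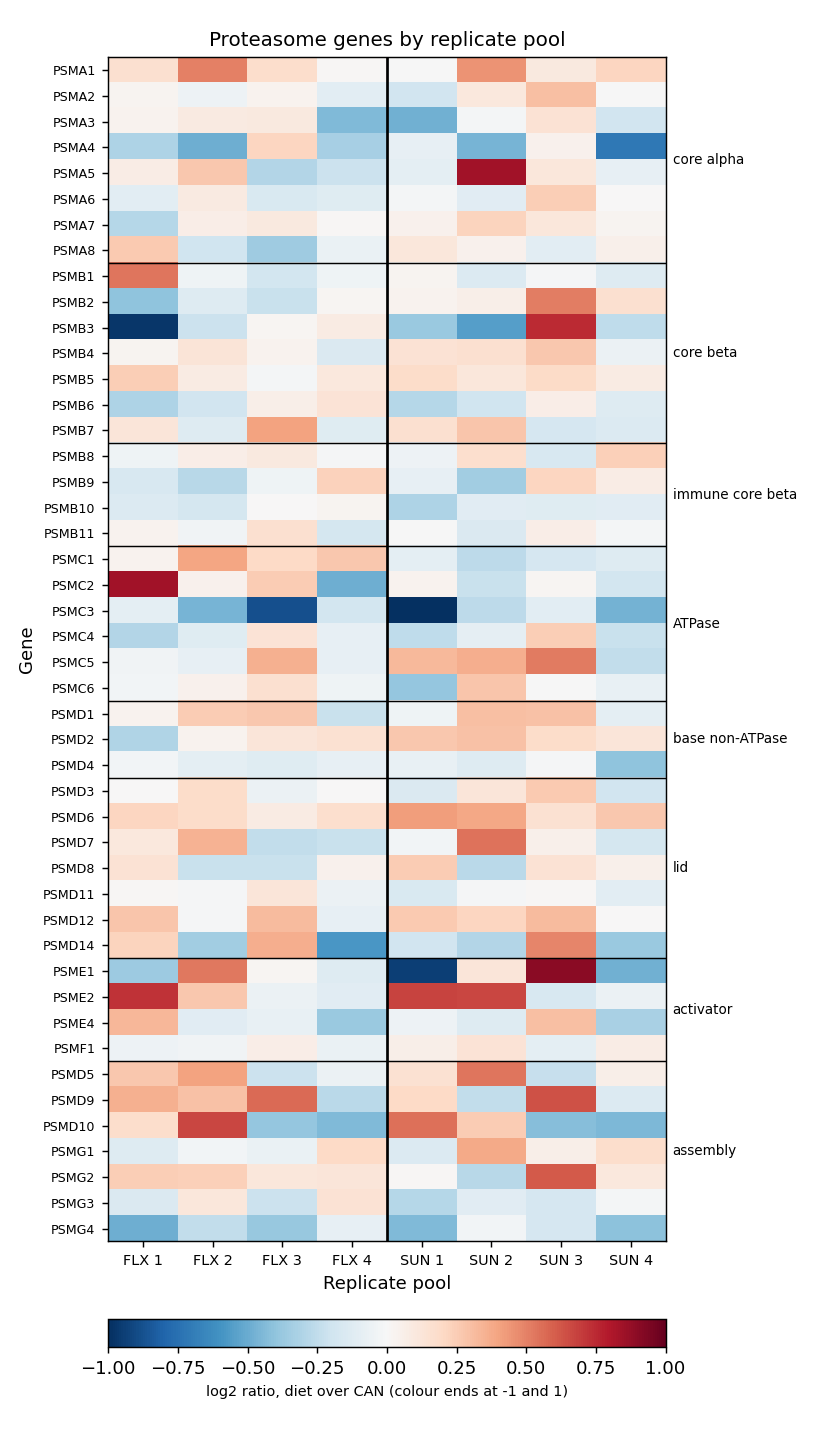
Log2 ratio of diet over CAN for the 46 members of the subunit groups (rows) in each of the 8 replicate pools (columns), coloured from blue (lower than CAN) to red (higher), with colour ending at −1 and 1. PSMD6 is red in all 8 pools and PSMC3, PSMD4 and PSMG4 are blue in all 8, while the other rows hold both colours. The share of all features with 1 sign in all 8 pools was not counted. FLX and SUN pools of 1 number share a CAN number.

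The heat map of pools shows the members that kept 1 sign against a background of mixed rows. SUN pool 3 had the most positive members, 32 of 47, and FLX pool 4 and SUN pool 4 the most negative, 30 of 47 each. The lowest single value was PSMC3 in SUN pool 1 (−1.04) and the highest was PSME1 in SUN pool 3 (0.90).

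The outer alpha rings of the core moved little as a group. Under FLX, 1 of 8 alpha genes had a positive and 7 a negative mean ratio, with a median of −0.048. Under SUN, 6 were positive and 2 negative, with a median of 0.040. None had an unadjusted p under 0.05 in either comparison. The FLX medians within pools were 0.032, 0.076, 0.066 and −0.11, so 3 of 4 had the opposite sign to the median of the means.

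PSMA1 lay at 0.16, 0.50, 0.17 and 0.011 in the FLX pools. In the SUN pools it lay at −0.0021, 0.45, 0.10 and 0.22. All FLX pools and all SUN pools but the first were above CAN, and the means were 0.21 ± 0.21 and 0.19 ± 0.20 (SD, n = 4). The limma p was 0.0507 for FLX and 0.0733 for SUN, unadjusted, and PSMA1 was the alpha gene with the smallest p under FLX. With the replicate number as a block its FLX p was 0.0404, and without FLX pool 2 its mean was 0.11 (unadjusted limma p 0.239).

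PSMA4, another alpha ring subunit, had the opposite sign. Its FLX pools lay at −0.31, −0.49, 0.21 and −0.33, with a mean of −0.23 ± 0.31 (SD, n = 4). Its SUN pools lay at −0.082, −0.46, 0.039 and −0.72, with a mean of −0.31 ± 0.35. Pool 3 was above CAN under each diet and the other pools below, and neither mean passed (unadjusted limma p 0.148 and 0.0643).

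No alpha gene had an unadjusted p under 0.05 for the difference between the diets. PSMA5 lay at −0.10, 0.84, 0.11 and −0.083 under SUN, so its mean of 0.19 ± 0.44 (SD, n = 4) came from pool 2, and without that pool it was −0.024. PSMA8, known in mammals as the testis-specific alpha subunit, had a mean of −0.091 ± 0.26 under FLX and 0.026 ± 0.094 under SUN. PSMA2, measured by 6 probes, stayed at −0.023 ± 0.069 under FLX and 0.053 ± 0.21 under SUN. PSMA3, PSMA6 and PSMA7 had mean ratios from −0.074 to −0.029 under FLX and from −0.13 to 0.10 under SUN.

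In the beta rings, the catalytic subunits are PSMB5 (chymotrypsin-like), PSMB6 (caspase-like) and PSMB7 (trypsin-like). The 7 constitutive beta genes split 4 positive to 3 negative under each diet, with medians of 0.011 for FLX and 0.033 for SUN. PSMB5 was the 1 constitutive beta gene with an unadjusted p under 0.05 against CAN, in SUN (14.3%, against 6.44% of all features).

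PSMB5 lay at 0.18, 0.11, 0.19 and 0.083 in the SUN pools. All 4 were above CAN, at a mean of 0.14 ± 0.053 (SD, n = 4; 1.10-fold; unadjusted limma p 0.0245, adjusted p 0.774). In the FLX pools it lay at 0.25, 0.083, −0.023 and 0.11, with a mean of 0.10 ± 0.11. The value depended on the dye. Arrays with CAN in Cy3 averaged −0.072 for SUN and −0.064 for FLX, while arrays with CAN in Cy5 averaged 0.36 and 0.27. Averaging exchanged arrays removes a dye difference of equal size, yet only 5 of 8 arrays of each diet were above CAN.

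PSMB6 and PSMB7 stayed within the spread of their pools. PSMB6 had a mean of −0.075 ± 0.21 (SD, n = 4) under FLX and −0.14 ± 0.15 under SUN, and its probes differed under SUN (0.0091 and −0.29). PSMB7 had means of 0.068 ± 0.25 and 0.033 ± 0.22.

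Among the beta subunits without a catalytic site, PSMB2 and PSMB3 had the most negative FLX means. PSMB2 lay at −0.40, −0.13, −0.22 and 0.021 in the FLX pools and at 0.036, 0.059, 0.51 and 0.16 in the SUN pools. Every SUN pool was above every FLX pool, though FLX pool 4 (0.021) and SUN pool 1 (0.036) lay close. The share of all features split this way was not counted. The means were −0.18 ± 0.18 and 0.19 ± 0.22 (SD, n = 4). Neither mean passed against CAN (unadjusted limma p 0.0814 and 0.0711). PSMB2 also followed the dye: its FLX mean was −0.64 on arrays with CAN in Cy3 and 0.28 on those with CAN in Cy5, and its SUN mean was −0.061 and 0.44.

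PSMB3 ranged widely, from −0.97 in FLX pool 1 to 0.75 in SUN pool 3. Its means were −0.27 ± 0.48 for FLX and −0.11 ± 0.58 for SUN (SD, n = 4), and its FLX mean turned from −0.72 with CAN in Cy3 to 0.18 with CAN in Cy5. PSMB1 and PSMB4 had means of 0.066 and 0.011 under FLX and of −0.064 and 0.13 under SUN, with unadjusted limma p of 0.0767 or more.

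The immune beta subunits replace their constitutive counterparts when cells meet interferon, which alters the peptides made for antigen presentation. PSMB8 replaces PSMB5, PSMB9 replaces PSMB6, and PSMB10 replaces PSMB7, while PSMB11 is known from the thymus. These 4 genes had 1 positive and 3 negative means under each diet, with medians of −0.033 for FLX and −0.031 for SUN.

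PSMB10 lay at −0.31, −0.11, −0.12 and −0.12 in the SUN pools and at −0.14, −0.17, 0.0030 and 0.031 in the FLX pools. All SUN pools were below CAN, at a mean of −0.16 ± 0.095 (SD, n = 4), 1.12-fold lower (unadjusted limma p 0.0171, adjusted p 0.774). All 8 SUN arrays had a negative PSMB10 value, and both of its probes had a negative SUN mean (−0.23 and −0.093). In the probe-level fit the first probe was below CAN in all 4 SUN pools (unadjusted limma p 0.00442). The second was above CAN in SUN pools 2 and 4 (0.13 and 0.021, unadjusted limma p of its mean 0.282). FLX pools of the gene lay on both sides of 0, with a mean of −0.070 ± 0.10.

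The other immune subunits differed from CAN by less than their spread. PSMB8 had means of 0.029 ± 0.064 and 0.049 ± 0.19 (SD, n = 4) for FLX and SUN, PSMB9 of −0.062 ± 0.22 and −0.036 ± 0.24, and PSMB11 of −0.0036 ± 0.14 and −0.027 ± 0.087. In the bovine gene table PSMB8 and PSMB9 flank TAP1, a peptide transporter of antigen presentation, and PSMB11 lies next to PSMB5. PSMB5 and PSMB11 nevertheless had SUN means of opposite sign.

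The ATPase ring of the base held the lowest mean against CAN under each diet and the member that differed most between the diets. Under FLX its 6 genes had 4 positive and 2 negative means, with a median of 0.037. Under SUN they had 1 positive and 5 negative, with a median of −0.085 and pool medians of −0.17, −0.16, 0.0071 and −0.20. PSMC1 and PSMC3 had an unadjusted p under 0.05 against CAN under each diet (33.3%, against 2.92% of all features in FLX and 6.44% in SUN).

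PSMC1 lay at 0.033, 0.39, 0.20 and 0.27 in the FLX pools and at −0.10, −0.26, −0.17 and −0.13 in the SUN pools. All 4 FLX pools were above CAN and all 4 SUN pools below it, and the share of all features split this way was not counted. The means were 0.22 ± 0.15 for FLX (SD, n = 4; 1.17-fold) and −0.16 ± 0.071 for SUN (1.12-fold lower). The unadjusted limma p was 0.00616 for FLX and 0.0288 for SUN, with adjusted p of 1.00 and 0.774. All 8 FLX arrays were positive and 7 of 8 SUN arrays negative. PSMC1 was measured by 1 probe.

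PSMC3 lay at −0.094, −0.46, −0.88 and −0.18 in the FLX pools and at −1.04, −0.26, −0.10 and −0.48 in the SUN pools. Every pool of each diet was below CAN, by amounts that differed several-fold between pools. The mean was −0.40 ± 0.35 for FLX (SD, n = 4; 1.32-fold lower; unadjusted limma p 0.040, adjusted p 1.00). The SUN mean was −0.47 ± 0.41 (1.39-fold lower; unadjusted limma p 0.0213, adjusted p 0.774). These were the most negative means of the 47 members against CAN under each diet. The means of its probes had the same sign, at −0.23 and −0.58 for FLX and at −0.31 and −0.63 for SUN. The first probe was above CAN in FLX pool 1 (0.41) and SUN pool 3 (0.094). In the probe-level fit its unadjusted limma p was 0.254 for FLX and 0.142 for SUN. The second probe was below CAN in every pool (unadjusted limma p 0.0152 and 0.00964), so the values under 0.05 rested on 1 of 2 probes. With the replicate number as a block the FLX value of the gene no longer lay under 0.05 (unadjusted limma p 0.066). FLX pool 3 and SUN pool 1 carried much of the means, which were −0.25 and −0.28 without them (unadjusted limma p 0.185 and 0.102).

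**Figure D2:**
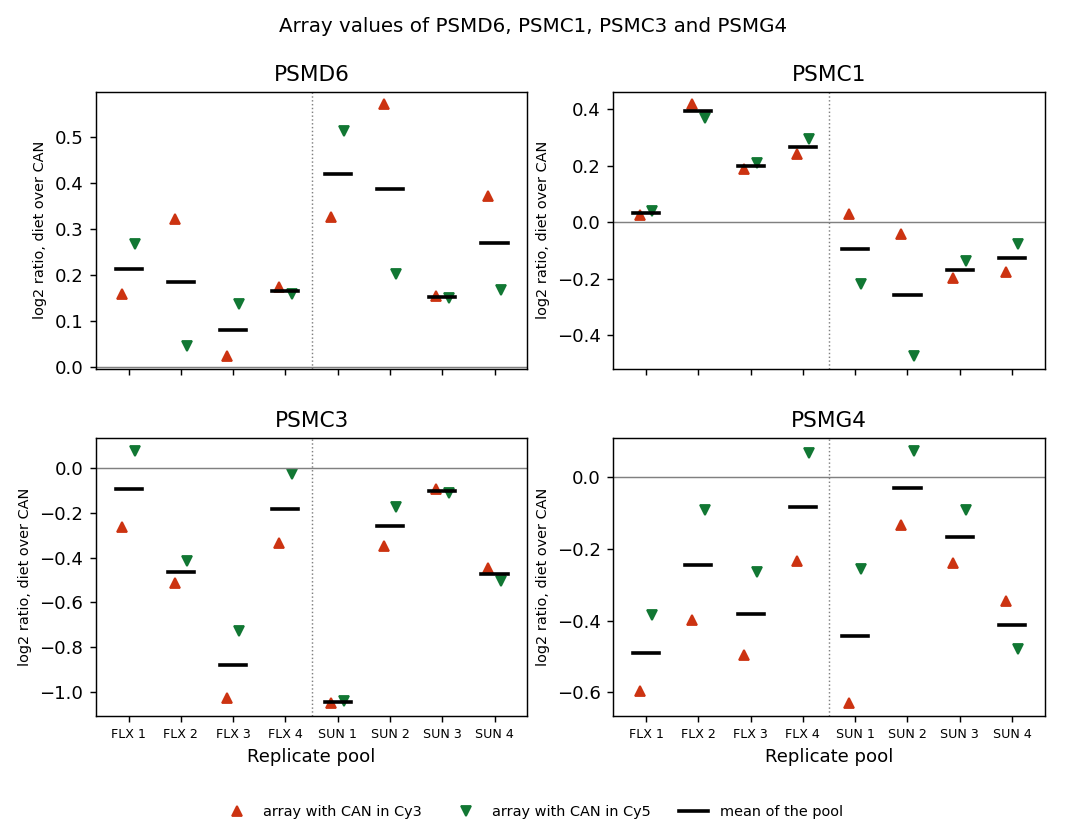
Log2 ratio of diet over CAN on each array for PSMD6, PSMC1, PSMC3 and PSMG4, with red triangles for arrays with CAN in Cy3, green triangles for arrays with CAN in Cy5 and black bars for the mean of each pool. The vertical axes differ between panels. All 16 PSMD6 values are above 0, and PSMC1 values are above 0 on the 8 FLX arrays and below 0 on 7 of the 8 SUN arrays.

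The remaining ATPases passed no threshold. PSMC2 lay at 0.84, 0.044, 0.26 and −0.49 under FLX, and its mean of 0.16 ± 0.55 (SD, n = 4) became −0.063 without pool 1. PSMC5 lay at 0.33, 0.36, 0.52 and −0.25 under SUN, with a mean of 0.24 ± 0.34, 1 of the 6 highest. Pool 4 alone was below CAN. PSMC4 and PSMC6 had means from −0.089 to 0.035 over both diets.

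The non-ATPase base subunits carry the scaffold and a ubiquitin receptor. PSMD2, a scaffold, lay at 0.27, 0.29, 0.19 and 0.12 in the SUN pools and at −0.30, 0.035, 0.12 and 0.15 in the FLX pools. All SUN pools and all 8 SUN arrays were above CAN, at a mean of 0.22 ± 0.079 (SD, n = 4; 1.16-fold; unadjusted limma p 0.0196, adjusted p 0.774). The FLX mean was 0.0020 ± 0.21. Its 3 probes did not move alike under SUN, with means of 0.34, 0.33 and −0.020. The SUN mean of PSMD2 was 0.35 on arrays with CAN in Cy3 and 0.082 on those with CAN in Cy5.

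PSMD4, a receptor that binds ubiquitin chains, lay at −0.073, −0.13, −0.011 and −0.40 in the SUN pools and at −0.027, −0.10, −0.12 and −0.079 in the FLX pools. All 8 pools were below CAN, with means of −0.15 ± 0.17 for SUN (SD, n = 4; unadjusted limma p 0.0433, adjusted p 0.774) and −0.082 ± 0.041 for FLX. The SUN mean of PSMD4 was −0.27 on arrays with CAN in Cy3 and −0.037 on those with CAN in Cy5. The SUN value rested on 1 of 2 probes, since their means were 0.077 and −0.38, and on pool 4, without which it was −0.070 (unadjusted limma p 0.188). With the replicate number as a block the unadjusted limma p was 0.0507. PSMD1, the other scaffold, had means of 0.084 ± 0.23 and 0.11 ± 0.21 for FLX and SUN.

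In the lid, PSMD6 gave the smallest unadjusted p of any member against CAN. It lay at 0.42, 0.39, 0.15 and 0.27 in the SUN pools and at 0.21, 0.18, 0.081 and 0.17 in the FLX pools. All pools were above CAN, and the groups overlapped. The SUN mean was 0.31 ± 0.12 (SD, n = 4; 1.24-fold; unadjusted limma p 0.000395, adjusted p 0.774). The FLX mean was 0.16 ± 0.057 (1.12-fold; unadjusted limma p 0.0165, adjusted p 1.00). All 16 arrays had a positive value, in either dye. PSMD6 is a structural lid subunit and was measured by 1 probe.

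PSMD12, a further lid scaffold, lay at 0.26, 0.21, 0.31 and 0.00032 in the SUN pools, with a mean of 0.20 ± 0.14 (SD, n = 4; 1.15-fold; unadjusted limma p 0.0389, adjusted p 0.774). Pools 1 to 3 were well above CAN and pool 4 was level with it. Under FLX pools 1 and 3 were likewise above (0.28 and 0.31) and pools 2 and 4 slightly below, with a mean of 0.13 ± 0.20.

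PSMD14, the deubiquitinase that cuts ubiquitin chains from substrates, differed between pools rather than diets. Its FLX pools lay at 0.22, −0.35, 0.36 and −0.58 and its SUN pools at −0.19, −0.30, 0.48 and −0.37. The means were −0.088 ± 0.45 and −0.093 ± 0.39 (SD, n = 4). Its partner PSMD7 had means of −0.0046 ± 0.29 and 0.10 ± 0.31. PSMD3, PSMD8 and PSMD11 had means from −0.066 to 0.043 over both diets. As a group, the 7 lid genes had 4 positive and 3 negative means under FLX (median 0.015) and 5 and 2 under SUN (median 0.043).

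**Figure D3:**
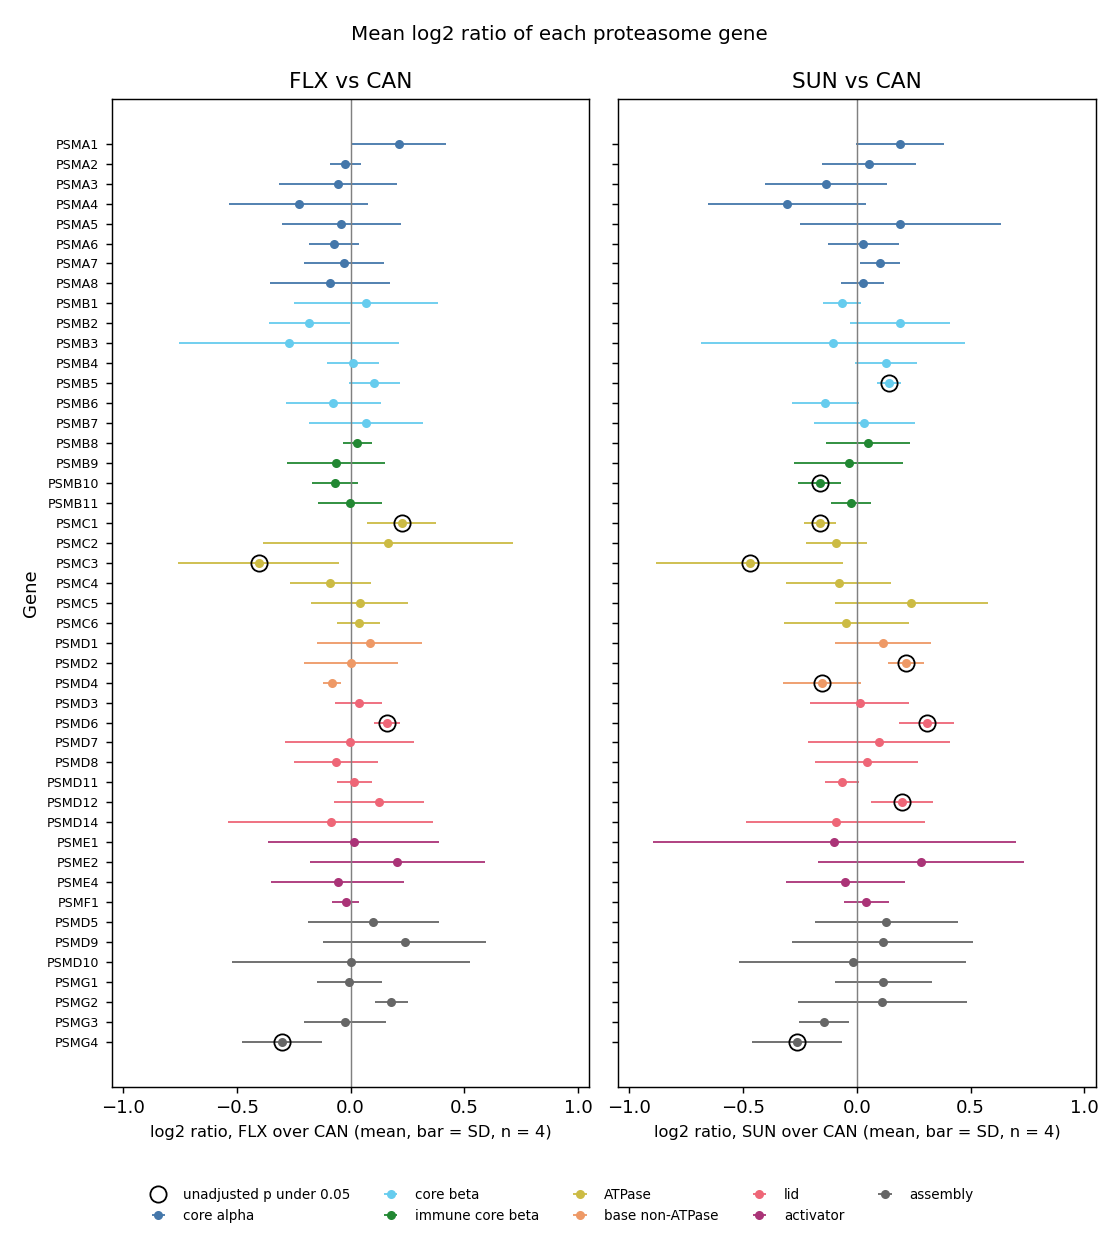
Mean log2 ratio over CAN of each of the 46 subunit-group genes under FLX (left) and SUN (right), with bars for the SD over 4 pools, colours for subunit groups and black rings for an unadjusted limma p under 0.05. The ringed genes lie on both sides of 0: 4 under FLX and 9 under SUN, between −0.47 (PSMC3) and 0.31 (PSMD6).

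The plot of means shows the ringed genes spread over the core, base, lid and assembly groups. When any 1 pool of the same diet was left out, the unadjusted limma p stayed under 0.05 for PSMC1 and PSMG4 under FLX and for PSMD6 under SUN. Leaving out a pool of the other diet, which shares the variance estimate, was not examined here. Each of the other ringed genes crossed 0.05 without at least 1 pool, with the highest p between 0.0622 (PSMD6 under FLX) and 0.188 (PSMD4 under SUN).

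The activator genes encode caps that open the core without ubiquitin. PSME1 and PSME2 form 1 interferon-inducible cap, PSME4 is a nuclear activator, and PSMF1 a regulator named for its inhibition of the core in vitro. None had an unadjusted p under 0.05 against CAN. PSME2 lay at 0.72, 0.27, −0.058 and −0.11 in the FLX pools and at 0.68, 0.67, −0.16 and −0.061 in the SUN pools. Pools 1 and 2 were above CAN and pools 3 and 4 slightly below in each diet, and the means were 0.21 ± 0.38 and 0.28 ± 0.45 (SD, n = 4). Within each diet, pools 1 and 2 lay on 1 slide and pools 3 and 4 on another, so slide and pool cannot be told apart here. Pools of 1 number also share a CAN number, so the split in FLX and that in SUN may not be independent.

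PSME1, its partner in the cap, lay at −0.94, 0.12, 0.90 and −0.48 in the SUN pools and at −0.37, 0.53, 0.022 and −0.13 in the FLX pools. This was the widest SUN spread of any member (SD 0.80), and PSME1 and PSME2 had opposite signs in SUN pools 1 and 3. The genes are close neighbours in the gene table, with EMC9 between them. PSME4 and PSMF1 had means from −0.057 to 0.042 over both diets.

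Among the assembly factors, the core chaperone PSMG4 had the smallest p of its group against CAN under each diet. It lay at −0.49, −0.25, −0.38 and −0.083 in the FLX pools and at −0.44, −0.029, −0.17 and −0.41 in the SUN pools. Every pool was below CAN, and the ranges of the diets overlapped, with FLX pool 1 lowest and SUN pool 2 highest. The FLX mean was −0.30 ± 0.18 (SD, n = 4; 1.23-fold lower; unadjusted limma p 0.00834, adjusted p 1.00). The SUN mean was −0.26 ± 0.20 (1.2-fold lower; unadjusted limma p 0.0162, adjusted p 0.774). Both probes were negative under each diet, and 7 of 8 arrays of each diet were negative. On arrays with CAN in Cy3 the FLX and SUN means were −0.43 and −0.34. With CAN in Cy5 they were −0.17 and −0.19 (unadjusted limma p 0.141 and 0.105).

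The other chaperones of the core were mixed. PSMG2 lay at 0.25, 0.24, 0.11 and 0.12 in the FLX pools, all above CAN, with a mean of 0.18 ± 0.074 (SD, n = 4) and an unadjusted limma p of 0.17. The value came from 1 dye orientation, with FLX means of 0.0075 on arrays with CAN in Cy3 and 0.35 on those with CAN in Cy5. Its variance estimate is shared with the SUN pools, which ran from −0.28 to 0.62. PSMG3 was below CAN in all 4 SUN pools (mean −0.15 ± 0.11, unadjusted limma p 0.0791), and PSMG1 had means of −0.0057 and 0.12 for FLX and SUN.

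Of the base chaperones, PSMD9 lay at 0.36, 0.29, 0.57 and −0.27 in the FLX pools and had the highest FLX mean of the 47 members, 0.24 ± 0.36 (SD, n = 4; unadjusted limma p 0.186). Pool 4 was the one below CAN. PSMD5 had means of 0.10 ± 0.29 and 0.13 ± 0.31 for FLX and SUN. PSMD10, or gankyrin, was above CAN in pools 1 and 2 and below it in pools 3 and 4 of each diet, with means of 0.0024 ± 0.52 and −0.018 ± 0.50. As for PSME2, this split was also the split by slide. Over the 7 assembly genes the SUN median of means was 0.11, while 3 of the 4 pool medians were negative (0.010, −0.029, −0.17 and −0.019), so the direction depended on how the genes were summarised. PSMC3IP, the gene that is no subunit, had means of −0.011 ± 0.19 and 0.070 ± 0.30.

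**Figure D4:**
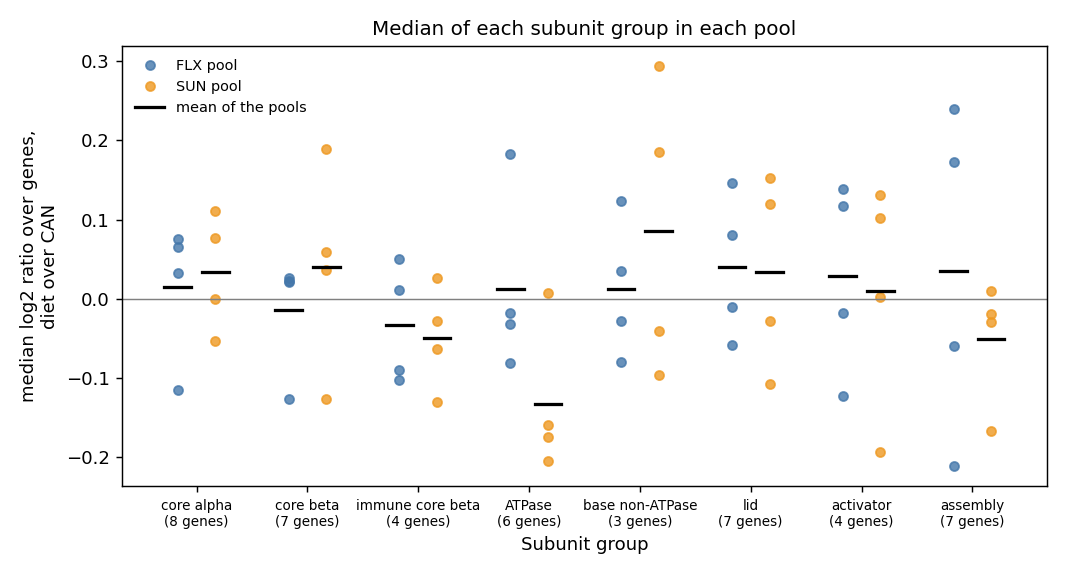
Median log2 ratio over the genes of each subunit group in each FLX pool (blue) and SUN pool (orange), with black bars for the mean of the 4 pool medians. Every group has pools on both sides of 0 under each diet, and the ATPases under SUN have 3 pools between −0.20 and −0.16 and 1 at 0.0071.

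The plot of group medians shows that no subunit group lay on 1 side of CAN in all 4 pools of a diet.

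FLX and SUN embryos were never set on 1 array, so they were compared through CAN. Signs and SDs are of differences between pools of the same number, while the limma contrast compared the diet means without pairing. Among the members, 21 were higher and 26 lower in FLX than in SUN, with a median difference of −0.020 and a median size of 0.080, against 0.071 over all features. The unadjusted limma p was under 0.05 for 2 members (4.26%, against 2.24% of all features and 2.22% of named genes). PSMC1 was higher, as were 1.02% of all features, and PSMB2 lower, as were 1.21%. None passed the false discovery rate, which called 0% of all features. In all 4 pools, 5 members (PSMC1, PSMB2, PSMD6, PSMA7 and PSMB4, named after their values were seen) kept 1 sign of the difference (10.6%, against 13.3% of all features and 13.5% of named genes).

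PSMC1 was higher in FLX than in SUN in all 4 pools. The mean difference was 0.39 ± 0.21 (SD, n = 4; unadjusted limma p 0.00196, adjusted p 1.00, both without pairing). With the replicate number as a fixed block, which pairs the pools, the unadjusted limma p was 0.0065. PSMB2 was lower in FLX in all 4 pools, with a mean difference of −0.37 ± 0.27 (unadjusted limma p 0.0202, adjusted p 1.00, and p 0.0542 without FLX pool 1, all without pairing). With the fixed block its unadjusted limma p was 0.0151. On arrays with CAN in Cy5 the PSMB2 difference was −0.17 (unadjusted limma p 0.365), and on those with CAN in Cy3 −0.58. PSMD2 differed by −0.22 ± 0.26 and PSMD6 by −0.15 ± 0.068, with unadjusted limma p of 0.0767 and 0.0911. With the replicate number as a block the PSMD6 difference had an unadjusted limma p of 0.0464, and with a fixed block 0.0727. Leaving out the dye orientation with CAN in Cy3 turned the PSMD2 difference to 0.033.

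Genes that work with the proteasome were read in 6 lists beside the members, and no gene of them passed the false discovery rate against CAN. Of 17 measured proteasome partners, 1 was higher and 1 lower at an unadjusted p under 0.05 in FLX (11.8%, against 2.92% of all features). In SUN, 0 were higher and 1 lower (5.88%, against 6.44%). ADRM1, a ubiquitin receptor of the base, had means of −0.33 ± 0.21 for FLX and −0.36 ± 0.41 for SUN (SD, n = 4; unadjusted limma p 0.0473 and 0.0343), and all FLX pools and 3 of 4 SUN pools were below CAN. RAD23B, which shuttles ubiquitinated proteins to the proteasome, had means of 0.24 ± 0.19 and 0.14 ± 0.12 (unadjusted limma p 0.0135 and 0.0998). It was above CAN in all FLX pools.

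Of 14 regulators of proteasome genes, NFE2L2, a transcription factor of the oxidative stress response, was the 1 with an unadjusted p under 0.05 in FLX (7.14%, against 2.92% of all features), and none was in SUN. Its FLX mean was −0.32 ± 0.33 (SD, n = 4; unadjusted limma p 0.0234), with 1 of 4 pools above CAN. Medians of this list were 0.037 for FLX and −0.018 for SUN. NFYC, a subunit of a promoter-binding factor, had means of −0.11 and −0.12.

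Of 19 ubiquitin activation and conjugation genes, 3 were lower and 0 higher at an unadjusted p under 0.05 in FLX (15.8%, against 2.92% of all features, 1.29% of them lower). In SUN, 1 was higher and 1 lower (10.5%, against 6.44%). CDC34, a conjugating enzyme of cell cycle ligases, was below CAN in all 4 FLX pools (mean −0.23 ± 0.041, unadjusted limma p 0.00283). UBE2S, which extends chains for the anaphase-promoting complex, had an FLX mean of −0.19 ± 0.10 (unadjusted limma p 0.0346). UBE2C, which starts those chains, had a SUN mean of 0.31 ± 0.24 (unadjusted limma p 0.0112).

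Of 28 ubiquitin ligase genes, 0 in FLX and 1 in SUN (3.57%, against 6.44% of all features) had an unadjusted p under 0.05. This was ANAPC11, the RING subunit of the anaphase-promoting complex, at −0.48 ± 0.50 in SUN (SD, n = 4; unadjusted limma p 0.0409) and −0.41 ± 0.42 in FLX. Of all 37220 features, 18701 had a positive SUN mean and 19371 a positive FLX mean. Of 16 genes of endoplasmic reticulum-associated degradation, 13 had a positive SUN mean (median 0.10) and 7 a positive FLX mean (median −0.027). VCP, the ATPase that extracts ubiquitinated proteins, ran against that SUN count, at −0.14 ± 0.12 (unadjusted limma p 0.0448), and lay at −0.18 ± 0.10 in FLX (unadjusted limma p 0.0152). It was the 1 gene of that list under 0.05 in each comparison (6.25%, against 2.92% of all features in FLX and 6.44% in SUN). Of 10 antigen processing genes and their inducers, 8 had negative means in each comparison, with medians of −0.066 for FLX and −0.042 for SUN and none under an unadjusted p of 0.05.

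Marker lists were read for cells the pools could hold. Under SUN, 10 of 13 trophectoderm markers were positive (median 0.15), and their pool medians were 0.10, 0.56, −0.30 and 0.17. The proteasome member medians of those pools were −0.040, 0.046, 0.11 and −0.083: SUN pool 3, with the highest, had the lowest trophectoderm median, while SUN pool 2, next in order, had the highest trophectoderm median. Under FLX the trophectoderm pool medians were −0.040, −0.14, −0.20 and 0.16. PAG2, a placental glycoprotein gene of the trophectoderm, had the smallest p of that list, with a SUN mean of 0.85 ± 0.63 (SD, n = 4; unadjusted limma p 0.0299). Under SUN, 11 of 13 cumulus and granulosa markers were positive (median 0.092), against 3 of 13 under FLX (median −0.056). At an unadjusted limma p under 0.05, 1 of them was higher in SUN (7.69%, against 6.44% of all features). This was FSHR, at 0.22 ± 0.17 (SD, n = 4; unadjusted limma p 0.0476). Of all 37220 features, 18701 were positive under SUN and 19371 under FLX. Medians of the inner cell mass, hypoblast, blood and uterine epithelium lists lay between −0.042 and 0.035 in both comparisons. Single genes of these lists lay far from the medians. LTF of the uterine list lay at −2.21 in FLX pool 3 and −2.68 in SUN pool 3, and between −0.26 and 0.25 in the other pools. NANOG of the inner cell mass list lay at 0.35, 5.34, −0.30 and 1.51 in the SUN pools (unadjusted limma p 0.130). The part of cell composition in the proteasome values was not tested.

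As a description over the 8 pools, the 5 genes outside the members whose values followed the member median most closely by Pearson's r, of 15169 ranked, were LYZ3 (0.97), UBA6 (0.96), HNRNPR (0.96), GSX2 (0.96) and TPPP3 (0.96). UBA6 encodes a ubiquitin-activating enzyme. These 8 points share CAN numbers in pairs, and the genes were picked as the top of the ranking.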

How the data were processed

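The authors deposited log ratios, read here as log2, with 1 value for each probe on each array. Per the labels, the arrays carried 2 dyes (Cy3 and Cy5) and amplified RNA of pooled embryos. No source used here gives the log base, scaling, centring or direction. Base 2 and Cy5 over Cy3 were assumed, and a pool's arrays correlated negatively before turning, as exchanged dyes do. Ratios were turned to diet over CAN and averaged over each dye exchange (n = 4 per diet). Probes were named from the platform's table, with 1524 updated through synonyms, and 21549 of 21790 named probes were found in the gene table of ARS-UCD2.0, used for names and neighbours only. A gene's 1 to 6 probes were averaged, and unnamed probes were kept singly, giving 37220 features. No value was missing.

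The 8 pools entered 1 limma fit (lmFit and eBayes; residual degrees of freedom 6, prior 2.34) for both diet means and their difference. Two-sided p-values were adjusted over all features (Benjamini-Hochberg). The p-values measure the spread between pools. Members and gene lists were chosen with earlier results of these data known, so lists got no test. Named were, against CAN, the 6 highest and 6 lowest members, every member under an unadjusted p of 0.05 and the smallest p of each subunit group, for FLX vs SUN those under 0.05 or the 4 of smallest p, and up to 2 genes of smallest p per list and comparison. Other members are given by their values to account for all. The model was run on simulated data with independent pools and planted changes larger than those of the members. That run does not show how well changes as small as the members' are found, or the effect of shared CAN numbers.

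Replicate numbers paired the samples: deviations of FLX and SUN pools of the same number correlated at 0.42, 0.57, 0.53 and 0.40, and those of different numbers at −0.30 to 0.0034, and the labels set both against a CAN sample of that number. Alternatives were other gene summaries, a probe-level fit, named genes only, centring, scaling, 1 dye orientation, all arrays with a dye term, robust variance, blocks for replicate number and slide, and leaving out each pool. R 4.3.3, limma 3.58.1, statmod 1.5.0, Python 3.11.15, numpy 2.4.6, pandas 2.3.3 and matplotlib 3.10.9 were used.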

Additional observations from a re-analysis of the deposited data

Results flagged for a closer look

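PSMC1 was above CAN in every FLX pool and below it in every SUN pool. The difference, 0.39, was tested in the limma contrast without pairing (unadjusted p 0.00196, adjusted p 1.00) and rests on 1 probe.

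In sets of 4 pools, 1 pool far from the other 3 was looked for with Dixon's test, for which chance gives about 1 in 20. Of 49 sets tested, 2 had such a pool. The median of the core beta genes was −0.13 in FLX replicate 2, against 0.026, 0.023 and 0.021 in the others. PSMB10 was −0.31 in SUN replicate 1, against −0.11 to −0.12 in the others, and all 4 pools were below CAN.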

How the results depend on the processing

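The count of members past the false discovery rate was 0 under every alternative run. With the replicate number as a block, the members under an unadjusted limma p of 0.05 numbered 4 for FLX and 8 for SUN. For FLX vs SUN they numbered 3, and 2 with a fixed block. Under FLX, PSMC3 (p 0.066) left and PSMA1 (p 0.0404) entered the threshold, and PSMD4 in SUN left it (p 0.0507). The PSMC1 difference had p 0.0012 with the block and 0.0065 with the fixed block. The PSMD6 difference entered the threshold with the block (p 0.0464) but not with the fixed block (p 0.0727). No other count changed by over 1.5 times under the block. Counted by probe, of 79 probes in place of 47 genes, 16 for SUN (20.3%, 14 genes) and 7 for FLX vs SUN (8.86%) were under 0.05, and 12 for FLX (15.2%) and 13 for FLX vs SUN (16.5%) had 1 sign. Members under 0.05 numbered 10 for FLX and 4 for FLX vs SUN with CAN in Cy3 only, and 1 for FLX vs SUN with CAN in Cy5 only. Members of 1 sign numbered 16 for FLX and 10 for FLX vs SUN with CAN in Cy3 only. With 1 dye orientation a dye difference is not averaged out. Pools were left out singly, from the same diet for comparisons with CAN and from either diet for FLX vs SUN. FLX medians then ran from −0.011 to 0.044 (0.044 without FLX 4) and SUN medians from −0.055 (without SUN 3) to 0.046. FLX vs SUN medians ran from −0.058 to 0.029 (without SUN 3). Members under 0.05 numbered 2 (without FLX 2) to 8 (without FLX 4) for FLX, and 5 (without SUN 1 or SUN 2) to 7 for SUN. Members of 1 sign then numbered 8 to 15 for FLX, 14 to 24 for SUN (24 without SUN 3) and 10 to 13 for FLX vs SUN, where fewer pools have to share a sign. For the counts under these alternatives the share of all features is not given here, so they are not read as a result about the members. Signs turned with CAN in Cy5 only for PSMB2 (0.28), PSMB3 (0.18) and PSMC2 (−0.038) in FLX and PSMD2 (0.033) in FLX vs SUN. With CAN in Cy3 only they turned for PSMB5 (−0.064 in FLX, −0.072 in SUN) and PSMC3IP (0.040 and −0.023). Without 1 pool, PSMC2 ran from −0.063 to 0.38 in FLX, PSMA5 from −0.024 to 0.29 in SUN, and PSMC3IP from −0.091 to 0.065 in FLX and −0.078 to 0.145 in SUN. The cause was not tested. Of values of named members, 497 kept their sign and 13 turned. Fits on named genes only, with a dye term, with a block or with robust variance leave every mean as it was. This count, and the counts of medians that follow, therefore include values that could not move, and they do not measure robustness. Of subunit group medians 15 moved by over the SD between pools and 408 did not, and of list medians 11 and 325. Slides held 1 diet each, and member medians were 0.001 and −0.009 for FLX slides and −0.043 and 0.023 for SUN slides.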
